A study of Mus musculus with 4 samples.

Results

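miR-143, miR-145, miR-199 and miR-214 are microRNAs of mesenchymal cells, and their levels were compared in exosomes that explants of visceral white adipose tissue (vWAT-Exos) and of brown adipose tissue (BAT-Exos) released, from mice on a high-fat (HFD) or a low-fat diet (LFD). A microRNA is a short RNA cut from a hairpin, and either strand of the hairpin (the 5p or the 3p arm) can be loaded into the silencing complex. The names sought were mmu-miR-143-3p, mmu-miR-145a-5p, mmu-miR-145a-3p, mmu-miR-199a-3p, mmu-miR-199a-5p, mmu-miR-199b-5p, mmu-miR-214-3p and mmu-miR-214-5p. Of these 8 names, 7 had an entry of their own, in 8 entries that held 6 distinct sequences, out of 697 distinct sequences with a mouse microRNA name. The members were matched by name and not by their values, but they were chosen with earlier results of these data known.

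There were 4 libraries and 1 per group, so no difference below has a replicate check. All mice were wild-type C57BL/6 (B6). HFD vWAT-Exos and HFD BAT-Exos stand for 4 months on HFD, and LFD vWAT-Exos and LFD BAT-Exos for 4 months on LFD. The labels give an age of 6 weeks. The exosomes were those that shredded tissue released into culture medium, so each library mixes the output of every cell type in the explant, and a lower level can mean fewer cells of a type or less RNA from each of them, which cannot be told apart. The sources used here do not say if several mice were pooled for a library.

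Values are the deposited norm values, which are normalized counts per sequence. Their library totals lay between 2585590 and 5832550, standing for approximately 1198340 to 8265830 reads, with the fewest reads in HFD vWAT-Exos and the most in HFD BAT-Exos. The worth of 1 read was inferred from 2 of 5 usable names in LFD vWAT-Exos and 3 of 3 in HFD vWAT-Exos, so intervals that use those 2 libraries are the least secure. Intervals in brackets are exact 95% binomial (Clopper-Pearson) intervals of the fold or ratio, computed from the approximate reads, and they cover counting error only.

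miR-143 and miR-145 are made from 1 shared primary transcript and are best known from smooth muscle cells, pericytes and fibroblasts. miR-199a and miR-214 are made in part from the noncoding transcript Dnm3os, which is active in mesenchymal cells during development and in fibrosis. Which cells of these explants released them was not measured.

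The mature sequences of the miR-199a and miR-214 arms are shown because their entries carried the clearest diet difference and because the naming of the miR-199 entries depends on single bases. They are RefSeq sequences (GRCm38.p6), written 5′ to 3′, with the seed (bases 2 to 8, the part that pairs with target mRNAs) in capitals.
miR-199a-5p: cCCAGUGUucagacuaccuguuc
miR-199a-3p: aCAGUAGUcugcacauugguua
miR-214-3p: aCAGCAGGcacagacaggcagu
miR-214-5p: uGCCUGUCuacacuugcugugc
The 4 seeds differ from each other, and no other of the 697 mouse sequences shares one of them. The listed sequence was 1 base shorter at the 3′ end than the mature sequence for miR-199a-3p and for miR-214-3p, and had the full 23 and 22 bases for miR-199a-5p and miR-214-5p.

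The miR-199 family cannot be split by gene in these data. No entry was named miR-199a-3p. Its sequence was listed as miR-199b-3p, and the mature miR-199a-3p and miR-199b-3p sequences have 0 mismatches over 22 bases, so the listed sequence matches all 3 Mir199 hairpins. It is given below as miR-199-3p and is counted apart from the 6 member sequences. The entry named miR-199b-5p held the same sequence and the same values as that of miR-199a-5p. This sequence has 0 mismatches to the Mir199a-1 and Mir199a-2 hairpins and 1 to the Mir199b hairpin (U10C, where the hairpin base comes first, positions run from the 5′ end of the listed sequence, and the listed base comes last). It was therefore taken once, as miR-199a-5p, and miR-199b-5p has no value of its own.

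The genes lie at several loci of GRCm38 (GENCODE M21). Mir199a-2 (chromosome 1, 162217814 to 162217923) and Mir214 (chromosome 1, 162223368 to 162223477) are on the plus strand, 5444 bases apart, both in an exon of Dnm3os, which is antisense to an intron of Dnm3. Mir199a-1 (chromosome 9, 21496495 to 21496564, minus strand) lies in an intron of Dnm2, and Mir199b (chromosome 2, 32318460 to 32318569, plus strand) in an intron of Dnm1, each on the strand opposite its host. A listed miR-199a-5p sequence can therefore come from 2 hairpins and a listed miR-199-3p sequence from 3, while miR-214 has 1.

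Mir143 (chromosome 18, 61649196 to 61649258) and Mir145a (chromosome 18, 61647825 to 61647894) are both on the minus strand, 1301 bases apart, and overlap no other annotated gene.

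miR-143-3p, the main arm of miR-143, was the most abundant of the group in all 4 libraries. It had norm values of 69824 in HFD vWAT-Exos, 51574 in LFD vWAT-Exos, 62409 in HFD BAT-Exos and 64880 in LFD BAT-Exos. Among the 697 mouse sequences it stood at place 9 in HFD vWAT-Exos, 11 in LFD vWAT-Exos, 17 in HFD BAT-Exos and 16 in LFD BAT-Exos. The 4 values lie within a narrow band, with LFD vWAT-Exos the lowest. Its share of the library total was 2.46% in HFD vWAT-Exos and 1.99% in LFD vWAT-Exos, against 1.07% in HFD BAT-Exos and 1.15% in LFD BAT-Exos.

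miR-145a-5p, the arm of miR-145 known as a regulator of the smooth muscle phenotype, was lower than miR-143-3p in every library. Its norm values were 13132 in HFD vWAT-Exos, 10862 in LFD vWAT-Exos, 10057 in HFD BAT-Exos and 8756 in LFD BAT-Exos. The opposite arm, miR-145a-3p, had 3116 in HFD vWAT-Exos, 4671 in LFD vWAT-Exos, 6008 in HFD BAT-Exos and 6941 in LFD BAT-Exos. The 2 arms of miR-145a thus stood in opposite order over the 4 libraries, with the 5p arm highest and the 3p arm lowest in HFD vWAT-Exos.

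miR-199-3p had norm values of 29829 in HFD vWAT-Exos, 31323 in LFD vWAT-Exos, 14394 in HFD BAT-Exos and 22358 in LFD BAT-Exos. miR-199a-5p, its partner arm, had 17726 in HFD vWAT-Exos, 15354 in LFD vWAT-Exos, 3059 in HFD BAT-Exos and 8333 in LFD BAT-Exos. Both were lowest in HFD BAT-Exos, where miR-199a-5p was at place 93 of the mouse sequences, against places 31, 32 and 53 in HFD vWAT-Exos, LFD vWAT-Exos and LFD BAT-Exos.

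miR-214-3p, the more abundant arm of miR-214, was a moderate entry. It had 1192 in HFD vWAT-Exos, 1193 in LFD vWAT-Exos, 763 in HFD BAT-Exos and 1068 in LFD BAT-Exos. miR-214-5p had 182 in HFD vWAT-Exos, 176 in LFD vWAT-Exos, 60.0 in HFD BAT-Exos and 154 in LFD BAT-Exos, which stand for approximately 77, 129, 85 and 186 reads. As for the miR-199a arms, HFD BAT-Exos was the lowest of the 4 libraries for both.

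**Figure D1:**
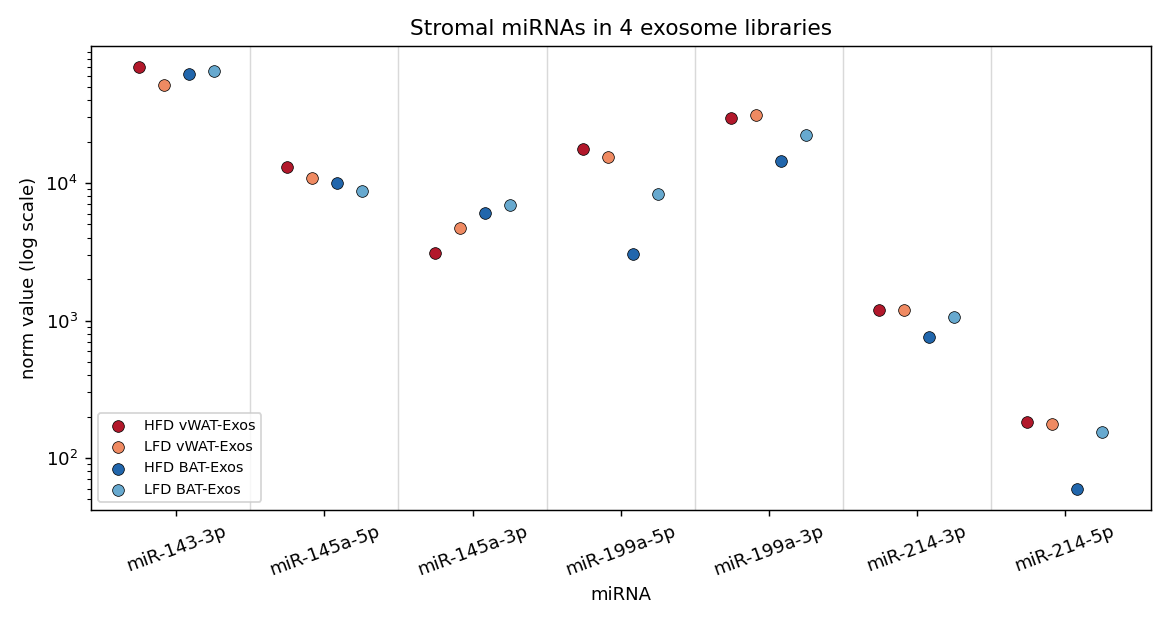
Norm values of the member sequences and of the sequence listed as miR-199b-3p (labelled miR-199a-3p) on a log axis in the 4 libraries, with 1 point per library and no error bar, since there is 1 library per group. miR-143-3p lies highest in all 4 libraries, and miR-199a-5p and miR-214-5p are lowest in HFD BAT-Exos, at 3059 and 60.0.

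Diet in brown fat exosomes was compared between HFD BAT-Exos and LFD BAT-Exos. miR-199a-5p was 2.72-fold lower in HFD BAT-Exos than in LFD BAT-Exos (2.63 to 2.82), and miR-214-5p was 2.56-fold lower (1.97 to 3.35). Their 3p partners were lower by less, 1.55-fold for miR-199-3p (1.53 to 1.58) and 1.40-fold for miR-214-3p (1.29 to 1.52). miR-143-3p had a fold of 0.962 (0.953 to 0.971), miR-145a-5p of 1.15 (1.12 to 1.18) and miR-145a-3p of 0.866 (0.840 to 0.892). The arms of miR-199 and miR-214 were therefore all lower in the HFD library, while those of miR-143 and miR-145a differed by less and in both directions.

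A sequence was counted as higher or lower at a difference of 2-fold or more with a norm value of 100 or more in one or both libraries. By this rule 2 of 6 member sequences were lower in HFD BAT-Exos and 0 were higher. Of the 283 mouse sequences that could be counted there, 12.4% were lower and 7.42% were higher. The 2 lower members can come from 1 primary transcript, so they are not independent of each other. The median log2 difference was -0.35 over the 6 members, against 0.07 over all 283 sequences. With miR-199-3p included, 2 of 7 were lower and the median was -0.49. With equal library totals miR-199a-5p was 2.81-fold lower and miR-214-5p 2.64-fold lower, so the scaling moved these folds little.

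In vWAT-Exos the diet folds of the miR-199 and miR-214 arms were smaller than in BAT-Exos, and those of miR-143-3p and both miR-145a arms were larger. By the 2-fold rule 0 of 6 members were higher and 0 were lower in HFD vWAT-Exos, where 5.65% of the 283 sequences counted were higher and 4.59% were lower. The largest difference in either direction was in miR-145a-3p, lower in HFD vWAT-Exos than in LFD vWAT-Exos with a fold of 0.667 (0.626 to 0.711). miR-143-3p was 1.35-fold higher (1.33 to 1.37) and miR-145a-5p 1.21-fold higher (1.17 to 1.25). miR-199a-5p had a fold of 1.15 (1.12 to 1.19), miR-214-5p of 1.04 (0.773 to 1.39), miR-214-3p of 0.999 (0.894 to 1.12) and miR-199-3p of 0.952 (0.932 to 0.973). For both miR-214 arms the interval included 1, so the difference between these 2 libraries was within counting error. For the others the interval excluded 1, but it does not cover variation between mice, so it does not show an effect of diet. The scaling turned the direction of both miR-214 arms (0.946 with equal library totals for miR-214-5p and 1.03 with median-of-ratios for miR-214-3p). The median log2 difference of the members was 0.13, against 0.04 over all 283 sequences.

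**Figure D2:**
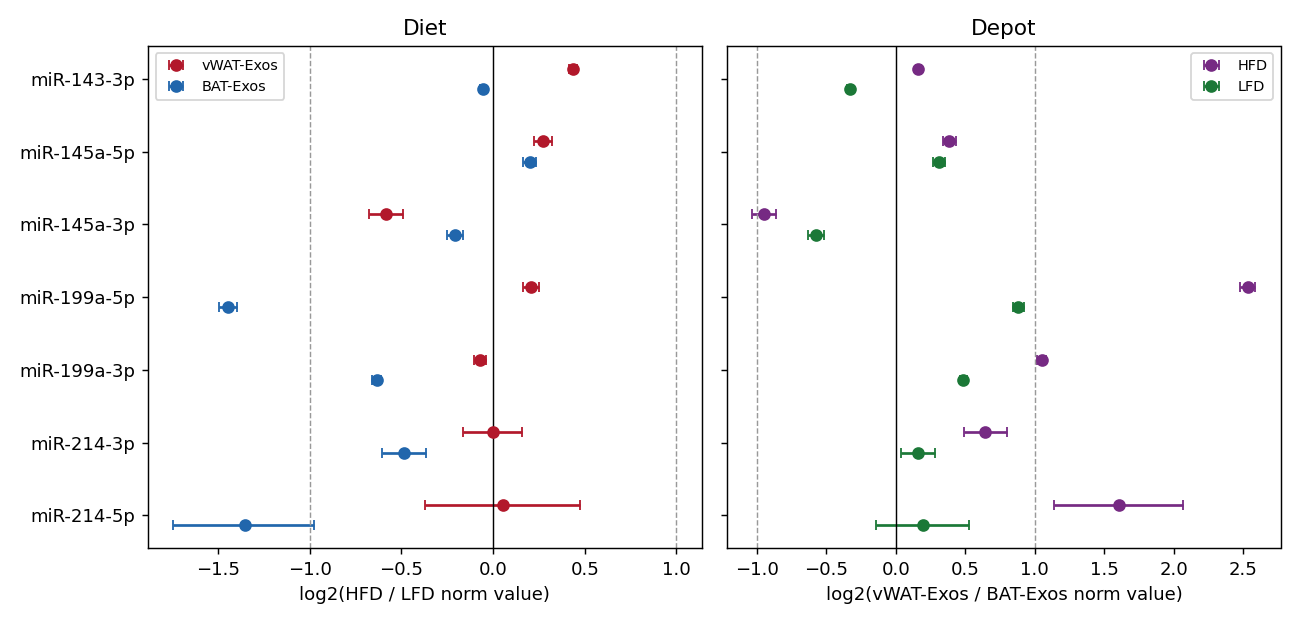
Log2 differences of the members between libraries with exact 95% intervals for counting error only, for diet (HFD over LFD) within each depot and for depot (vWAT-Exos over BAT-Exos) within each diet. Dashed lines mark 2-fold, the sequence listed as miR-199b-3p is labelled miR-199a-3p, and miR-199a-5p (2.72-fold lower) and miR-214-5p (2.56-fold lower) lie furthest left in the diet difference of BAT-Exos.

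The diet differences of the 2 depots were set against each other by subtracting the log2 diet difference of BAT-Exos from that of vWAT-Exos. It was 1.65 for miR-199a-5p, place 27 of 320 mouse sequences with a norm value of 100 or more in some library, and 1.40 for miR-214-5p, place 34. It was 0.56 for miR-199-3p, 0.49 for miR-143-3p, 0.48 for miR-214-3p, 0.07 for miR-145a-5p and -0.38 for miR-145a-3p. Over all 320 sequences the median was -0.05 and the 5% and 95% quantiles were -1.97 and 2.06, so every member lay between them. With 1 library per group the difference between depots could not be tested.

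**Figure D3:**
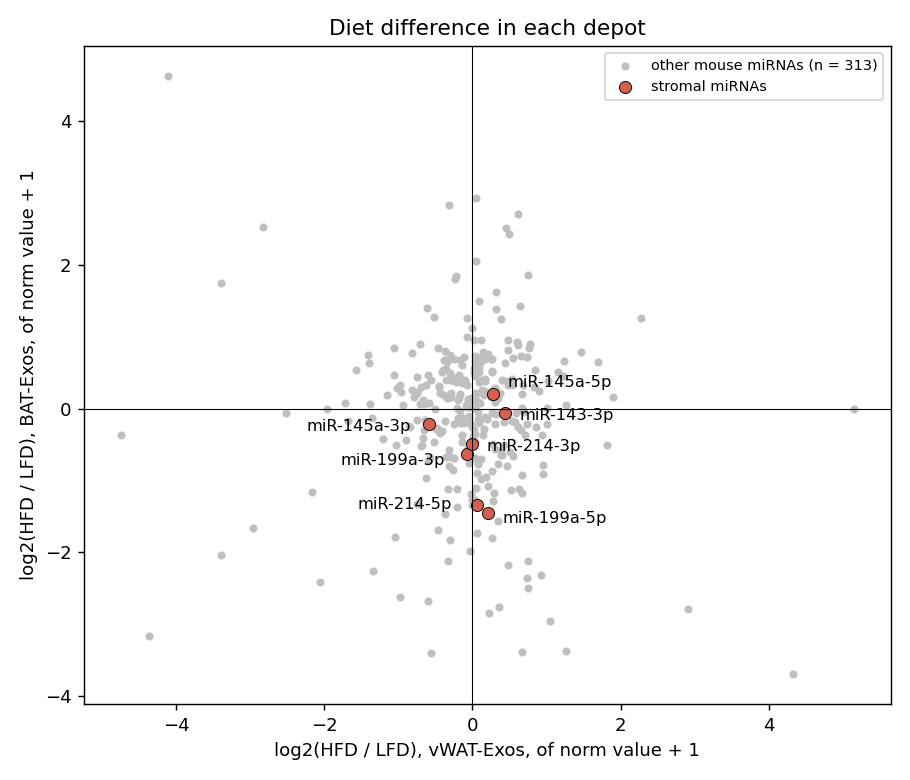
Log2 difference HFD over LFD in vWAT-Exos and in BAT-Exos for the 320 mouse sequences with a norm value of 100 or more in some library, with the members marked. The members spread little along the vWAT-Exos axis, while miR-199a-5p and miR-214-5p lie below -1 on the BAT-Exos axis and inside the spread of the other sequences.

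The depot comparison on HFD gave the largest folds of the group. It uses the same HFD BAT-Exos library as the diet comparison in BAT-Exos, so the comparisons are not independent. The low miR-199a-5p and miR-214-5p of that library also enter the difference between depots above and the ratios below. miR-199a-5p was 5.80-fold higher in HFD vWAT-Exos than in HFD BAT-Exos (5.58 to 6.02), miR-214-5p 3.04-fold higher (2.21 to 4.19) and miR-199-3p 2.07-fold higher (2.03 to 2.12). miR-214-3p was 1.56-fold higher (1.40 to 1.74), miR-145a-5p 1.31-fold higher (1.27 to 1.35) and miR-143-3p 1.12-fold higher (1.10 to 1.13), while miR-145a-3p was 1.93-fold lower (1.82 to 2.04). By the 2-fold rule 2 of 6 members were higher in HFD vWAT-Exos and 0 were lower, among 307 sequences of which 30.6% were higher and 32.2% were lower. A share of 2 in 6 is close to this background. The members' median log2 difference was 0.51, against -0.27 over all 307 sequences.

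On LFD the depot folds of every member but miR-143-3p were smaller than on HFD. miR-199a-5p was 1.84-fold higher in LFD vWAT-Exos than in LFD BAT-Exos (1.79 to 1.89) and miR-199-3p 1.40-fold higher (1.38 to 1.43). miR-145a-5p was 1.24-fold higher (1.20 to 1.28), miR-214-3p 1.12-fold higher (1.02 to 1.22), and miR-214-5p had a fold of 1.14 (0.907 to 1.44). miR-143-3p had a fold of 0.795 (0.785 to 0.805) and miR-145a-3p of 0.673 (0.647 to 0.700). 0 of 6 members passed the 2-fold rule in either direction, among 303 sequences of which 23.4% were higher and 29.4% were lower in LFD vWAT-Exos. The members' median log2 difference was 0.18, against -0.19 over all 303 sequences.

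The depot folds depend on the scaling, because the norm values of the BAT-Exos libraries sum to more than those of the vWAT-Exos libraries. Of the total of 5832550 in HFD BAT-Exos, 2080470 came from miR-378a-3p of brown adipocytes, against 113025 of 2839850 in HFD vWAT-Exos. Scaling all 4 libraries to equal totals moves every depot difference up by 1.04 on the log2 scale on HFD and by 1.13 on LFD. On that scale 5 of 6 members were higher and 0 lower in HFD vWAT-Exos, among 310 mouse sequences of which 48.1% were higher and 19.7% were lower. In LFD vWAT-Exos 4 of 6 were higher and 0 lower, among 322 sequences of which 52.2% were higher and 12.1% were lower. The folds of miR-143-3p on LFD (1.74) and of miR-145a-3p on HFD (1.07) and LFD (1.47) changed direction. Median-of-ratios scaling moved the depot differences by 0.07 on HFD and by -0.01 on LFD. miR-199a-5p was higher in vWAT-Exos under all 3 scalings in both diets.

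Ratios between members of 1 library do not depend on its scaling. The ratio of miR-143-3p to miR-199a-5p was 3.94 (3.84 to 4.04) in HFD vWAT-Exos, 3.36 (3.29 to 3.43) in LFD vWAT-Exos, 20.4 (19.8 to 21.0) in HFD BAT-Exos and 7.79 (7.63 to 7.95) in LFD BAT-Exos. The 4 intervals do not overlap. Against the 3p arm the spread was smaller, with a ratio of miR-143-3p to miR-199-3p of 2.34 in HFD vWAT-Exos, 1.65 in LFD vWAT-Exos, 4.34 in HFD BAT-Exos and 2.90 in LFD BAT-Exos. Within the shared locus, the ratio of miR-143-3p to miR-145a-5p was 5.32 in HFD vWAT-Exos, 4.75 in LFD vWAT-Exos, 6.21 in HFD BAT-Exos and 7.41 in LFD BAT-Exos. miR-143-3p thus held a more even ratio to miR-145a-5p over the libraries than to either arm of miR-199. The other arm of the locus, miR-145a-3p, ran otherwise. It was lowest in HFD vWAT-Exos at 3116, where miR-143-3p was highest at 69824.

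The arms of 1 hairpin also differed between libraries. The ratio of miR-199a-5p to miR-199-3p was 0.594 (0.577 to 0.612) in HFD vWAT-Exos, 0.490 (0.479 to 0.501) in LFD vWAT-Exos, 0.212 (0.206 to 0.220) in HFD BAT-Exos and 0.373 (0.364 to 0.381) in LFD BAT-Exos, although its 3p count also holds miR-199b-3p. The ratio of miR-214-3p to miR-214-5p was 6.53 (5.13 to 8.42) in HFD vWAT-Exos, 6.79 (5.64 to 8.23) in LFD vWAT-Exos, 12.7 (10.2 to 16.1) in HFD BAT-Exos and 6.96 (5.96 to 8.16) in LFD BAT-Exos. For miR-145a the ratio of 5p to 3p was 4.21 (3.97 to 4.48) in HFD vWAT-Exos, 2.33 (2.23 to 2.42) in LFD vWAT-Exos, 1.67 (1.63 to 1.72) in HFD BAT-Exos and 1.26 (1.23 to 1.30) in LFD BAT-Exos. In HFD BAT-Exos the 5p arm of both miR-199a and miR-214 was thus lowest relative to its 3p arm.

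Shifts of this size were not rare among other hairpins. Over 66 pairs of arms with 100 or more in some library for each arm, the log2 ratio of 5p to 3p in HFD BAT-Exos minus that in LFD BAT-Exos had a median of -0.13 with 5% and 95% quantiles of -1.11 and 0.99. It was -0.86 for miR-214, place 15 of 66 by size, and -0.81 for miR-199a, place 18. For miR-145a it was 0.41 and for miR-143 0.25. In vWAT-Exos the same difference between diets had 5% and 95% quantiles of -0.77 and 1.39. It was 0.86 for miR-145a, place 17 of 66, -0.61 for miR-143, place 27, 0.28 for miR-199a, place 45, and 0.06 for miR-214.

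**Figure D4:**
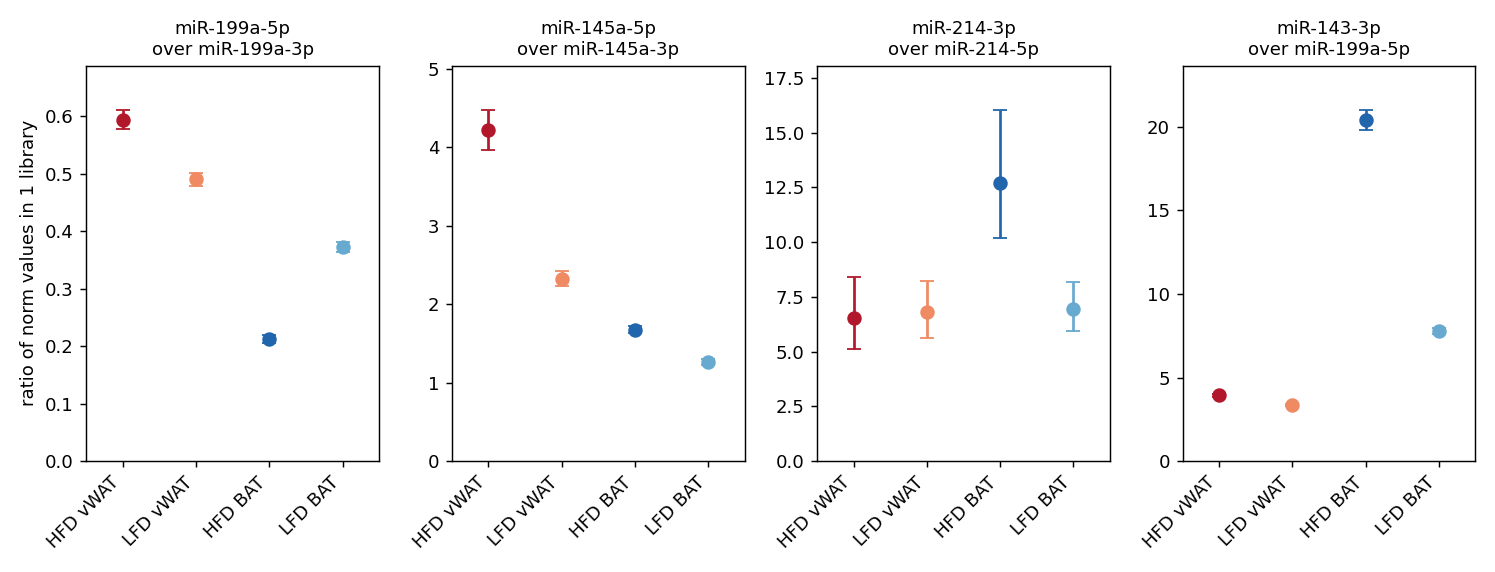
Ratios between members within each library (linear axes that start at 0) with exact 95% intervals for counting error only. The ratio of miR-143-3p to miR-199a-5p is highest in HFD BAT-Exos at 20.4, and the ratio of miR-199a-5p to the sequence listed as miR-199b-3p (labelled miR-199a-3p) is lowest there at 0.212.

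Over all 4 libraries an additive model of diet and depot was fitted with limma to log2(norm value + 1) of 512 sequences. It has 1 residual degree of freedom, and its error is the departure from additivity and not replicate error. At an adjusted p of 0.05 it called 100 sequences by depot (19.5%) and 0 of 6 members. The member closest to the threshold was miR-199a-5p, at a log2 difference of 1.71 in vWAT-Exos over BAT-Exos (SE 0.66, limma adjusted p = 0.146, higher in vWAT-Exos in both diets), with an adjusted p between 0.0318 and 0.231 over 6 alternatives. The other members had limma adjusted p values up to 0.917. By diet the model called 0 sequences (0%) and 0 of 6 members, with 27 sequences and 0 members at an unadjusted limma p under 0.05.

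The remaining strands of the same loci were present. miR-143-5p, the minor arm of miR-143, had 969 in HFD vWAT-Exos, 1092 in LFD vWAT-Exos, 1194 in HFD BAT-Exos and 1040.0 in LFD BAT-Exos, and miR-143-3p exceeded it 72.0-fold in HFD vWAT-Exos, 47.2-fold in LFD vWAT-Exos, 52.3-fold in HFD BAT-Exos and 62.4-fold in LFD BAT-Exos. The entry miR-145b had between 21.5 and 54.5.

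The sequences whose levels ran most like the members over the 4 libraries were sought by the distance between log2 values centred on their own mean, among 313 other mouse sequences with 100 or more in some library. For miR-143-3p they were miR-1943-5p (distance 0.10), miR-23a-3p (0.29) and miR-34a-5p (0.29). For miR-199-3p they were miR-541-5p (0.09), miR-434-5p (0.15) and miR-381-3p (0.18), all 3 encoded on chromosome 12 in the imprinted Dlk1-Dio3 region. miR-541-5p had 938 in HFD vWAT-Exos, 919 in LFD vWAT-Exos, 415 in HFD BAT-Exos and 669 in LFD BAT-Exos. For miR-214-3p they were miR-127-3p (0.14), also of that region, miR-125b-2-3p (0.16) and miR-146a-5p (0.20). With 4 points per sequence, such likeness is a description only.

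Of 10 listed sequences of other microRNAs known from stromal cells, 0 were higher and 0 lower in HFD BAT-Exos than in LFD BAT-Exos. Of all 283 sequences counted there, 7.42% were higher and 12.4% lower, so counts of 0 in 10 are close to this background. The median log2 difference of the 10 was 0.07, and their summed norm value was 296075 in HFD BAT-Exos, against 288762 in LFD BAT-Exos. miR-10b-5p, the most abundant of them, had 131716 in HFD BAT-Exos and 109329 in LFD BAT-Exos. In vWAT-Exos 2 of 10 were lower and 0 higher on HFD, against 4.59% lower and 5.65% higher of all 283 sequences counted. The sums were 242208 in HFD vWAT-Exos and 233028 in LFD vWAT-Exos. By depot 2 of 10 were higher and 2 lower in HFD vWAT-Exos, against 30.6% and 32.2% of all 307 sequences counted. In LFD vWAT-Exos 2 were higher and 3 lower, against 23.4% and 29.4% of all 303.

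Markers of some other cell types passed the 2-fold rule between the 2 BAT-Exos libraries, and those of others did not. Of all 283 sequences counted there, 7.42% were higher on HFD and 12.4% lower. The 6 striated muscle microRNAs were all higher in HFD BAT-Exos, with sums of 22933 in HFD BAT-Exos and 4193 in LFD BAT-Exos, 5.47-fold, led by miR-133a-3p at 13087 and 1829. The 4 countable epithelial microRNAs of the miR-200 family were all lower, and the 5 listed summed to 327 in HFD BAT-Exos and 2650 in LFD BAT-Exos, 8.11-fold lower, with miR-200a-3p at 83.3 and 869. Of 4 leukocyte microRNAs 2 were lower, and these are the 2 arms of miR-142a, so they are not independent of each other. miR-142a-5p was at 650 in HFD BAT-Exos and 1469 in LFD BAT-Exos. miR-223-3p was lower by less, at 633 and 1070, and miR-150-5p went the other way, at 1140 and 1020. The leukocyte sums were 2489 in HFD BAT-Exos and 3987 in LFD BAT-Exos. Of the 2 endothelial miR-126a arms 0 were higher and 0 lower by the 2-fold rule, and the same held for the 5 brown adipocyte microRNAs. The endothelial arms summed to 37025 in HFD BAT-Exos and 23152 in LFD BAT-Exos, and the brown adipocyte microRNAs to 2142150 and 2149870. The 2 listed erythroid microRNAs summed to 13964 in HFD BAT-Exos and 11547 in LFD BAT-Exos. miR-451a carries the erythroid sum, while miR-144-3p, the other one, was lower, at 142 in HFD BAT-Exos and 808 in LFD BAT-Exos. The part of these markers in the lower miR-199a-5p and miR-214-5p of HFD BAT-Exos was not tested.

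By depot, the brown adipocyte list summed to 117011 in HFD vWAT-Exos, against 2142150 in HFD BAT-Exos, and to 74078 in LFD vWAT-Exos, against 2149870 in LFD BAT-Exos, so the depot labels fit these markers. The leukocyte list summed to 44063 in HFD vWAT-Exos, against 2489 in HFD BAT-Exos, and to 40007 in LFD vWAT-Exos, against 3987 in LFD BAT-Exos. In each diet 3 of its 4 microRNAs were higher in vWAT-Exos, where 30.6% of all sequences counted were higher on HFD and 23.4% on LFD. The other one, miR-223-3p, had 659 in HFD vWAT-Exos and 633 in HFD BAT-Exos. On LFD it was lower in vWAT-Exos, at 680 against 1070 in LFD BAT-Exos. In vWAT-Exos 4 of 5 epithelial microRNAs were higher on HFD, against 5.65% of all 283 sequences counted. Their sums were 4638 in HFD vWAT-Exos and 1736 in LFD vWAT-Exos. The striated muscle list summed to 1385 in HFD vWAT-Exos, where miR-208b-3p was at 0 (which allows a norm value of up to 7.11), and to 1560 in LFD vWAT-Exos. Their part in the depot and diet folds of the members was not tested.

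Together the 6 member sequences made up 3.70% of the norm values of HFD vWAT-Exos and 3.24% of LFD vWAT-Exos, against 1.41% of HFD BAT-Exos and 1.60% of LFD BAT-Exos. These shares depend on the library totals, to which miR-378a-3p gave 2080470 in HFD BAT-Exos and 113025 in HFD vWAT-Exos. A higher share in vWAT-Exos is therefore not by itself a higher level. The summed norm values of the 6 members were 105174 in HFD vWAT-Exos, 83829 in LFD vWAT-Exos, 82355 in HFD BAT-Exos and 90131 in LFD BAT-Exos. The sum is carried by miR-143-3p in every library, so it does not show the lower miR-199a-5p and miR-214-5p of HFD BAT-Exos.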

How the data were processed

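Exosomal small RNA of 4 explant cultures was sequenced by the authors (TruSeq small RNA kit, single-end reads, Illumina HiSeq). Per the labels, the reads were processed with ACGT101-miR, and the build named is GRCh38, a human build. The deposited values are a normalized signal, the norm value, a normalized count per sequence and library. The method of normalization is not stated in the sources used here. Each mouse sequence was taken once, and names were matched without their variant suffix. The reads behind a norm value were approximated from numbers in the names of predicted entries, and 83.7% to 88.2% of values were whole reads within 0.01 of a read.

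Differences used a threshold of 2-fold and a norm value of 100 in at least 1 library. The study's p step was not applied, since each group has 1 library. The additive model was fitted in R 4.3.3 with limma 3.58.1 to log2(norm value + 1), with sequences with 10 or more in at least 1 library and Benjamini-Hochberg adjustment. Log2 differences of single pairs used the same pseudocount of 1. Other computations used matplotlib 3.10.9, scipy 1.17.1, pandas 2.3.3 and numpy 2.4.6 under Python 3.11.15. The depot fit was tested on simulated data that held depot changes but no diet change, so that test does not cover the diet fit. Alternatives changed the scaling, the floor, the fold, the pseudocount and the filter. All members are named. Of other microRNAs, those named are the highest of each marker list, miR-208b-3p for its value of 0 and miR-144-3p for its opposite direction (both chosen after their values were seen), strands of the same loci, and the 3 nearest patterns of 3 members. The members, lists and tests were chosen with earlier results of these data known, and the pairs of arms were compared after the values were seen.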

Additional observations from a re-analysis of the deposited data

Results flagged for a closer look

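The diet difference of miR-199a-5p ran in opposite directions in the depots, higher in HFD vWAT-Exos than in LFD vWAT-Exos and lower in HFD BAT-Exos than in LFD BAT-Exos. The vWAT-Exos fold was only 1.15, and 1.05 with equal library totals. The log2 difference between the depots was 1.65, place 27 of 320, and inside the 5% and 95% quantiles of all sequences (-1.97 and 2.06). miR-143-3p also had opposite signs, with a log2 difference between the depots of 0.49, place 99 of 320, and a BAT-Exos fold of only 0.962. miR-214-5p had opposite signs too, with a log2 difference of 1.40, place 34. Its vWAT-Exos fold of 1.04 was within counting error and changed direction with equal library totals. None of these differences was tested, since each group has 1 library.

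Entries named bta-miR-199c, a name from another species, were not part of the comparisons. They summed to a norm value of 105 in HFD vWAT-Exos and 63.3 in LFD vWAT-Exos, against 8.47 in HFD BAT-Exos and 14.4 in LFD BAT-Exos. The sum in HFD vWAT-Exos is above 7.11, the norm value that 3 reads are worth in that library.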

How the results depend on the processing

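No paired analysis was possible because there is 1 library per group and the labels carry no replicate numbers. No library could be left out for the same reason. In HFD vWAT-Exos over HFD BAT-Exos, 2 members were higher as reported, 5 with equal library totals (where 48.1% of all sequences counted were higher) and 1 when both libraries had to reach 100, and 0 were lower as reported and 1 at 1.5-fold. In LFD vWAT-Exos over LFD BAT-Exos, 0 were higher as reported, 4 with equal library totals (52.2% of all sequences) and 1 at 1.5-fold. In HFD BAT-Exos over LFD BAT-Exos, 2 were lower as reported, 1 when both libraries had to reach 100, since miR-214-5p had 60.0 in HFD BAT-Exos, and 0 at 3-fold. The share of all sequences is not given for the settings of 1.5-fold, 3-fold and 100 in both libraries. Member counts at these settings therefore cannot be set against a background. The additive limma model called 100 sequences by depot, 188 with log2(norm value + 10), 56 with log2(norm value + 0.1) and 56 with equal library totals, and 67 to 94 under the other 3 alternatives. Of the members it called only miR-199a-5p, with log2(norm value + 10) alone. By diet it called 0 under every alternative run. Taking only the highest sequence of a name changed no member count. Counting the sequence listed as miR-199b-3p as a member, an alternative added after the data were seen, gave 3 of 7 higher in HFD vWAT-Exos over HFD BAT-Exos. Low depth limits miR-214-5p most, with approximately 77 reads in HFD vWAT-Exos, and 1 library per group leaves variation between mice unmeasured in every comparison.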
